A study of Homo sapiens with 9 samples.

Results

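A set of 43 genes of the NRF2 pathway, of glutathione and thioredoxin metabolism, of peroxide removal and of ferroptosis was followed in HCT116, a widely used line of human colorectal carcinoma cells. The genes were selected by name from a table of 58735 genes, and 41 of the 43 had a mean of at least 0.1 FPKM (fragments per kilobase of gene length, relative to the depth of the library) over the 9 libraries and were tested. GSTM3 and AKR1C2 were below this limit. The 9 libraries were 3 of WT cells (genotype label A20-WT), 3 labelled A20-KO and 3 labelled A20-OE, all of the same line, with no drug or cytokine named in the labels. According to the Methods, A20 was knocked out with a guide RNA in a LentiCRISPR v2 lentivirus, and the third group is described there as knockout cells with A20 rescued, which are taken here to be the cells labelled A20-OE. A CMV-driven, Flag-tagged A20 plasmid is listed, but the vector used for the rescue is not stated. Whether a clone or a pool was sequenced is not stated, and the vector, the selection and the lineage of these cells cannot be told apart from the level of A20 itself. The labels do not say that the 3 libraries of a group came from separate cultures, so the p-values measure the spread between these libraries only, which may be technical.

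The libraries held between 23406222 and 24963691 reads on genes. Mitochondrial transcripts took 7.52% to 10.1% of the reads in WT, 9.18% to 11.9% in the libraries labelled A20-KO and 12% to 14.0% in A20-OE. On values scaled to the reads without the mitochondrial ones, a scaling chosen after seeing the data, 6 of the genes rose and 4 fell in A20-KO against WT, 3 and 9 in A20-OE against A20-KO, and 6 and 17 in A20-OE against WT. Over all 21636 genes the same fits gave 2629 higher and 2236 lower, 835 and 1167, and 3378 and 3306. Of the lists of cell type markers, the 6 epithelial markers (EPCAM, CDH1, CLDN7 and 3 keratins) summed to 1123 to 1525 FPKM in WT, 1755 to 2316 in A20-KO and 1755 to 2309 in A20-OE. The keratins made up most of this sum, with KRT19 at means of 434, 878 and 903 FPKM in these groups. EPCAM went the other way, with means of 130, 117 and 105 FPKM. The 5 leukocyte and 3 endothelial markers summed to at most 0.385 and 0.343 FPKM. Among the 4 fibroblast markers COL1A1 rose from 5.32 ± 0.668 FPKM (SD, n = 3) in WT to 13.3 ± 1.41 in A20-KO and 11.7 ± 0.653 in A20-OE, while COL1A2, COL3A1 and DCN were below 1 FPKM everywhere. The part of these marker levels in the results was not tested. Within its group A20-KO replicate 3 was the library farthest from the median for 31 of the 41 genes, WT replicate 1 for 23 and A20-OE replicate 3 for 20.

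TNFAIP3, the gene that encodes A20, was higher, not lower, in the A20-KO libraries than in WT. It was at 0.869, 0.8 and 0.736 FPKM in WT, at 1.93, 2.16 and 1.04 FPKM in the libraries labelled A20-KO, and at 58.7, 66.5 and 56.5 FPKM in A20-OE. From WT to A20-KO its log2 fold change was 0.95 (SE 0.23, adjusted p = 0.018). The mRNA level thus does not check the knockout label, and each direction given below for A20-KO is that of the libraries so labelled. The paper shows how strongly its knockout and rescued cells expressed A20 in a figure panel, whose values were not used here.

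NRF2, encoded by NFE2L2, is a transcription factor that KEAP1 binds in the cytosol and presents for degradation. When electrophiles or oxidants modify KEAP1, NRF2 accumulates, pairs with small MAF proteins such as MAFG and binds antioxidant response elements near genes for glutathione synthesis, thioredoxin recycling and detoxification. Ferroptosis is a death of cells by iron-dependent lipid peroxidation, which GPX4 and AIFM2 (FSP1) hold back and to which ACSL4 contributes by loading membranes with polyunsaturated lipids. NRF2 control is largely at the protein level, which these libraries do not measure.

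To show what the shared control element looks like in these genes, the core of the antioxidant response element, TGACNNNGC, was searched on both strands of the RefSeq promoter windows (GRCh38.p14, 250 bases before to 50 after each start). Of the 43 genes, 34 had a window, 50 windows in all, and 10 of the 50 (20%) held the core against 4685 of 35093 windows of all genes (13.4%). The 9 genes with a match were AIFM2, GCLM, GPX2, GSTO1, GSTP1, KEAP1, ME1, MGST1 and TXNRD1. The letters of the AP-1 element, TGACTCA, which can overlap the core, were in 4 of the 50 windows (8%), of AIFM2, GSTP1, ME1 and OSGIN1, against 4.95% of all. Not matched to a window were ABCC3, GSR, GSS, HMOX1, PRDX1, PRDX6, SLC7A11, SOD1 and TXN2. The stretches below are those of genes that moved in the libraries or whose core overlaps the AP-1 letters, read along the strand of the gene with the core in capitals. A core on the opposite strand reads GCNNNGTCA. Not shown are a further TXNRD1 match that begins 8 bases before the upstream start and a further ME1 match after its start.
TXNRD1, upstream start, chr12:104215670-104215698, plus strand, outside the GENCODE 29 gene: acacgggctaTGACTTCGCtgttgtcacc
TXNRD1, internal start, chr12:104286920-104286948, plus strand, exonic: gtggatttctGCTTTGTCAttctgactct
KEAP1, chr19:10502807-10502835, minus strand, exonic: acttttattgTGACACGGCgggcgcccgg
KEAP1, chr19:10502784-10502812, minus strand, exonic: gcccggctctGCTTAGTCAtggtgacctg
GCLM, chr1:93909446-93909474, minus strand, with 11 of its bases in the first exon: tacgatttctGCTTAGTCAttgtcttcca
AIFM2, chr10:70132829-70132857, minus strand, exonic: cagcacgagtGCTGAGTCAcgccccgccc
GSTP1, chr11:67583736-67583764, plus strand, exonic: gccggcgccgTGACTCAGCactggggcgg
ME1, chr6:83431170-83431198, minus strand, outside the gene: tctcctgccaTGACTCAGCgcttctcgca
The last 3 of these lines hold the AP-1 letters within or across the core, TGAGTCA in AIFM2 and TGACTCA in GSTP1 and ME1. A match is a run of letters, and no binding was measured. Bases more than 250 before a start or 50 after it were not searched. A gene without a match may therefore hold the core elsewhere.

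In A20-KO against WT 6 of the 41 tested genes rose (ABCC3, HMOX1, PRDX5, AKR1B1, CAT and NQO1), 5 fell (SOD2, SLC7A11, PRDX4, PRDX3 and GPX8) and 30 did not pass the test, which was limma on log2(FPKM + 0.1) at a Benjamini-Hochberg adjusted p under 0.05 over 21636 genes. Among all genes tested 11.3% passed as higher and 11.0% as lower, so the 6 and 5 of 41 were close to this background. Most of the 41 genes were above 1 FPKM. In a fit of the 12796 genes with a mean of at least 1 FPKM, 2169 were higher and 2443 lower, a larger share. With a log2 fold change beyond 1, the threshold of the Methods, 1 gene (ABCC3) was higher and 0 were lower, against 4.91% and 2.08% of all genes. The median log2 fold change was -0.02 over the 41 genes and -0.01 over all genes.

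In A20-OE against A20-KO 3 genes rose (HMOX1, GCLC and TXNRD1), 6 fell (TXNRD2, KEAP1, GPX1, AIFM2, SOD1 and PRDX3) and 32 did not pass. The background was 4.43% higher and 4.54% lower. In the fit of the 12796 genes with a mean of at least 1 FPKM, 947 were higher and 1124 lower, a larger share. The count of falls moved with the number of genes called over the whole table when 1 library was left out, with 0 falls without A20-KO replicate 1, A20-OE replicate 1 or A20-OE replicate 2, 1 to 3 without WT replicate 2, A20-KO replicate 2, A20-KO replicate 3 or A20-OE replicate 3, and 11 without WT replicate 1. Over all genes the falls went from 982 to 245, 208 and 235 in the first 3 of these fits and to 1792 in the last. With FPKM recomputed from the total of recovered reads, 3 of the genes rose and 11 fell, and over all genes 958 rises and 982 falls became 735 and 1423. Beyond a log2 fold change of 1 were HMOX1 and GCLC, both higher, and 0 genes lower, against 1.56% and 0.832% of all genes. The median log2 fold change was -0.19 over the 41 genes and 0.01 over all genes.

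In A20-OE against WT 6 genes rose (HMOX1, ABCC3, GCLC, OSGIN1, CAT and TXNRD1), 14 fell (KEAP1, SLC7A11, CHAC2, GPX8, SOD2, PRDX3, AIFM2, PRDX4, TXN, NFE2L2, PRDX6, SOD1, GCLM and GSS) and 21 did not pass. Among all genes 15.7% passed as higher and 15.4% as lower. In the fit of the 12796 genes with a mean of at least 1 FPKM, 2613 were higher and 3210 lower, a larger share. Their median log2 fold change was -0.05. The 4 called higher (HMOX1, ABCC3, GCLC and OSGIN1) and the 2 called lower (KEAP1 and SLC7A11) stand against 7.68% and 4.21% of all genes. The median log2 fold change was -0.26 over the 41 genes and 0.03 over all genes. The comparisons share their libraries and are not independent of each other. HMOX1 and PRDX3 passed the test in all 3 comparisons, and 16 of the 41 genes passed in none. For PRDX3 the call in A20-OE against A20-KO was lost in 7 of the 9 fits that left out 1 library. The shares of all genes that passed in all 3 or in none were not counted, so these counts do not set the 41 genes apart.

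**Figure D1:**
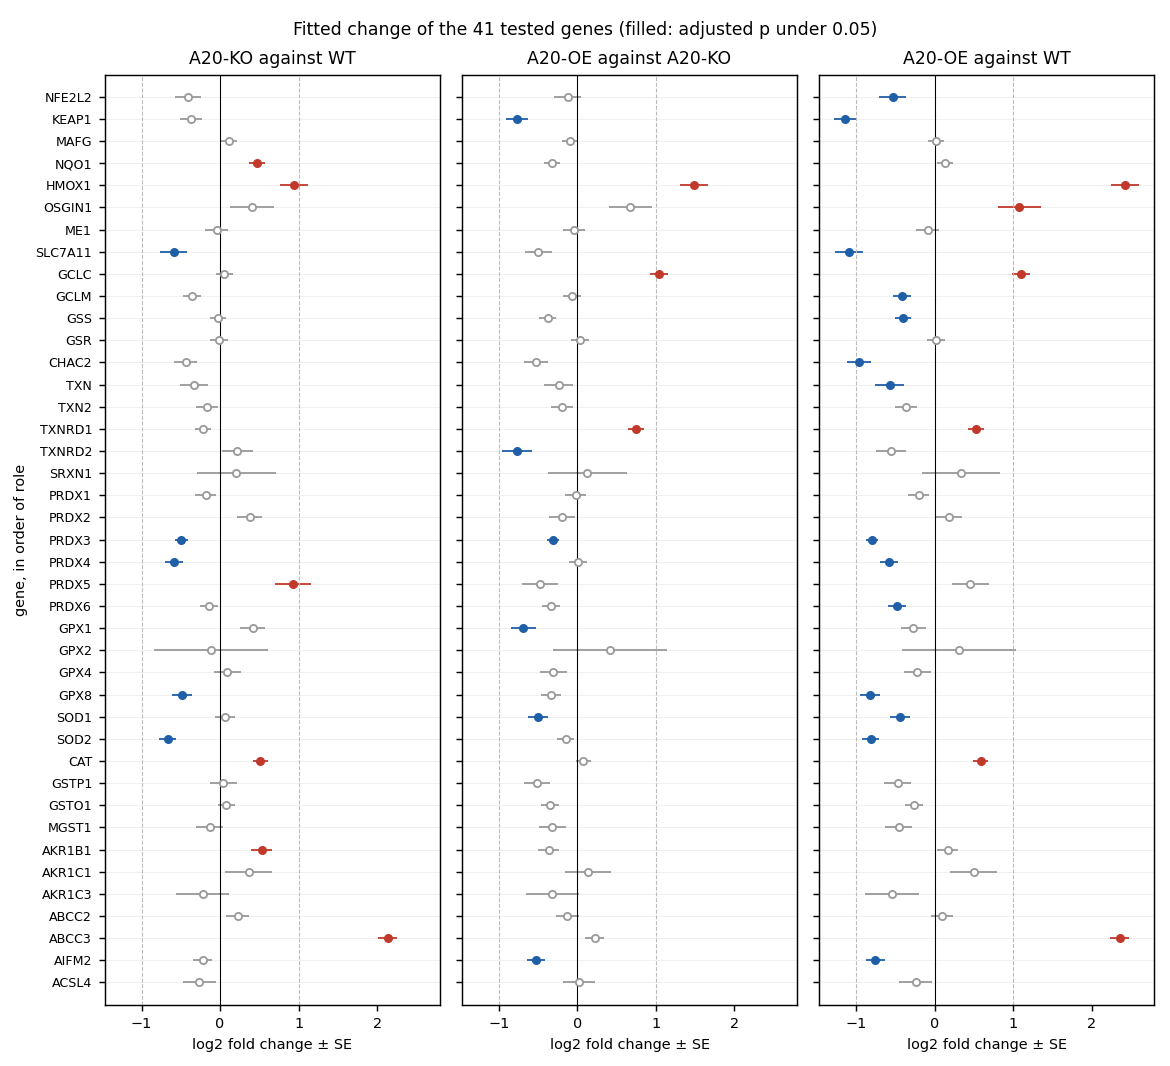
Log2 fold change ± standard error (x axis, log2(FPKM + 0.1) scale) of the 41 tested genes (y axis, in the order of their roles) in the 3 comparisons. Filled points passed the test (red higher, blue lower). HMOX1 lies to the right in every panel, ABCC3 in both comparisons with WT, GCLC and TXNRD1 in both comparisons of A20-OE, and KEAP1 lies furthest to the left in A20-OE against WT.

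The levels of the genes spanned more than 3 orders of magnitude. In WT, 9 genes were at 100 FPKM or more on average, led by PRDX1 (465 ± 37.8 FPKM, SD, n = 3), GSTP1 (289 ± 30.8) and TXN (257 ± 56.0). PRDX1 is a cytosolic peroxiredoxin, GSTP1 a glutathione transferase and TXN the cytosolic thioredoxin. GPX1, SOD1, GPX4, PRDX5, PRDX2 and NQO1 followed between 173 and 102 FPKM, and the neighbours SOD1, GPX4, PRDX5, PRDX2 and NQO1 overlapped in their libraries. At the other end AKR1C3, GPX2 and AKR1C1 were below 1 FPKM in every library. The summed level of all 43 genes was 2455 ± 148 FPKM in WT, 2538 ± 280 in A20-KO and 2169 ± 194 in A20-OE, with overlapping groups (exact two-sided permutation p = 0.2 for A20-OE against A20-KO and against WT). With 3 libraries against 3 this test cannot give a p below 0.1.

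**Figure D2:**
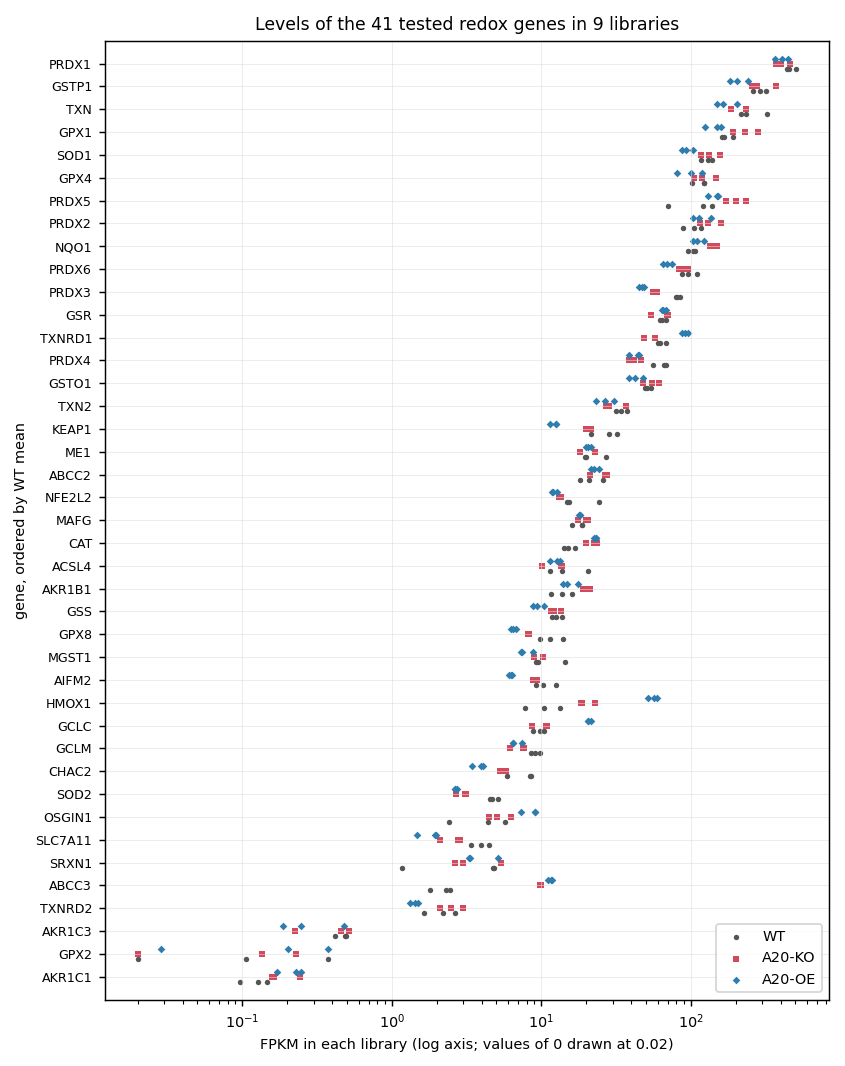
FPKM in each of the 9 libraries (x axis, log scale) of the 41 tested genes (y axis), ordered by their mean in WT. Grey circles are WT, red squares A20-KO and blue diamonds A20-OE, and values of 0 are drawn at 0.02. PRDX1 is the highest gene in every library, and HMOX1 and ABCC3 show the widest gaps between groups.

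Of the sensor and transcription factors, KEAP1 fell most clearly. KEAP1 (ENSG00000079999, GRCh38 chr19:10486120-10503741, minus strand), the adaptor that marks NRF2 for degradation, was at 21.6, 28.2 and 32.2 FPKM in WT, at 21.1, 19.7 and 21.6 in A20-KO, and at 12.6, 11.5 and 12.6 in A20-OE. All 3 A20-OE libraries were below all others, while WT replicate 1 lay within the A20-KO range. From WT to A20-OE the log2 fold change was -1.14 (SE 0.14, adjusted p = 0.00037). From A20-KO to A20-OE it was -0.77 (SE 0.14, adjusted p = 0.013), and this call was lost without A20-KO replicate 1 (adjusted p = 0.057) and without A20-OE replicate 1 or 2 (0.0575 and 0.0654). From WT to A20-KO it was -0.37 (adjusted p = 0.085), and it passed only when WT replicate 1 was left out (adjusted p = 0.0059).

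NFE2L2 (ENSG00000116044, chr2:177227595-177392697, minus strand) was at 24.3, 14.9 and 15.2 FPKM in WT, at 13.6, 13.2 and 13.0 in A20-KO, and at 11.9, 12 and 12.7 in A20-OE. The groups did not overlap, but WT replicate 1 stood far above the other libraries. The log2 fold change from WT to A20-OE was -0.53 (SE 0.17, adjusted p = 0.041), and the call was lost in the 6 fits that left out 1 library of A20-KO or A20-OE (adjusted p up to 0.117). Without WT replicate 1 the log2 fold change was -0.30. The call was also lost without a filter, in a fit on only the 2 groups compared and without the variance trend. Exons of the gene share 17.6% of their bases with AC019080.1 on the same strand. MAFG, the small MAF partner, lay between 15.9 and 20.5 FPKM in all libraries and passed in none of the comparisons.

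Among the inducible targets HMOX1 passed in all 3 comparisons, NQO1 and OSGIN1 in 1 each and ME1 in none. HMOX1 (ENSG00000100292, chr22:35380361-35394214, plus strand), which encodes the inducible heme oxygenase, was at 7.82, 10.5 and 13.4 FPKM in WT, at 18.4, 18.6 and 22.8 in A20-KO, and at 56.9, 52.0 and 58.9 in A20-OE. The 3 groups were fully separate and ordered WT, A20-KO, A20-OE. The mean was 1.89-fold higher in A20-KO than in WT, 2.8-fold higher in A20-OE than in A20-KO and 5.3-fold higher in A20-OE than in WT. The log2 fold changes were 0.94, 1.49 and 2.43 (SE 0.18 each), with adjusted p of 0.0063, 0.0028 and 3.1e-05, and held in every alternative fit.

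NQO1 (chr16:69706996-69726951, minus strand), a quinone reductase and a standard readout of NRF2, was at 106, 95.5 and 103 FPKM in WT, at 138, 133 and 150 in A20-KO, and at 109, 104 and 123 in A20-OE. The A20-KO libraries were above both other groups, which overlapped. The rise from WT to A20-KO was 0.47 on the log2 scale (SE 0.10, adjusted p = 0.012). From A20-KO to A20-OE the difference was -0.33 (adjusted p = 0.081), and from WT to A20-OE it was 0.14 (adjusted p = 0.35, 95% confidence interval -0.09 to 0.37). NQO1 was thus highest in A20-KO and HMOX1 in A20-OE. Exons of NQO1 share 17.7% of their bases with AC092115.2 on the opposite strand.

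OSGIN1 (chr16:83948282-83966332, plus strand), an NRF2-responsive gene of oxidative stress, was at 2.4, 4.41 and 5.73 FPKM in WT, at 5.07, 4.49 and 6.31 in A20-KO, and at 9.09, 7.33 and 9.01 in A20-OE. The WT and A20-KO libraries overlapped, and the A20-OE libraries were above all of them. The change from WT to A20-OE was 1.08 on the log2 scale (SE 0.28, adjusted p = 0.017), and the call was lost without A20-OE replicate 1 or 3 (adjusted p = 0.0631 and 0.0575). Of the exonic bases of OSGIN1, 13.9% are shared with AC009119.2 on the same strand. ME1, the cytosolic malic enzyme that supplies NADPH, lay between 18.1 and 27.0 FPKM and passed in none of the comparisons.

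**Figure D3:**
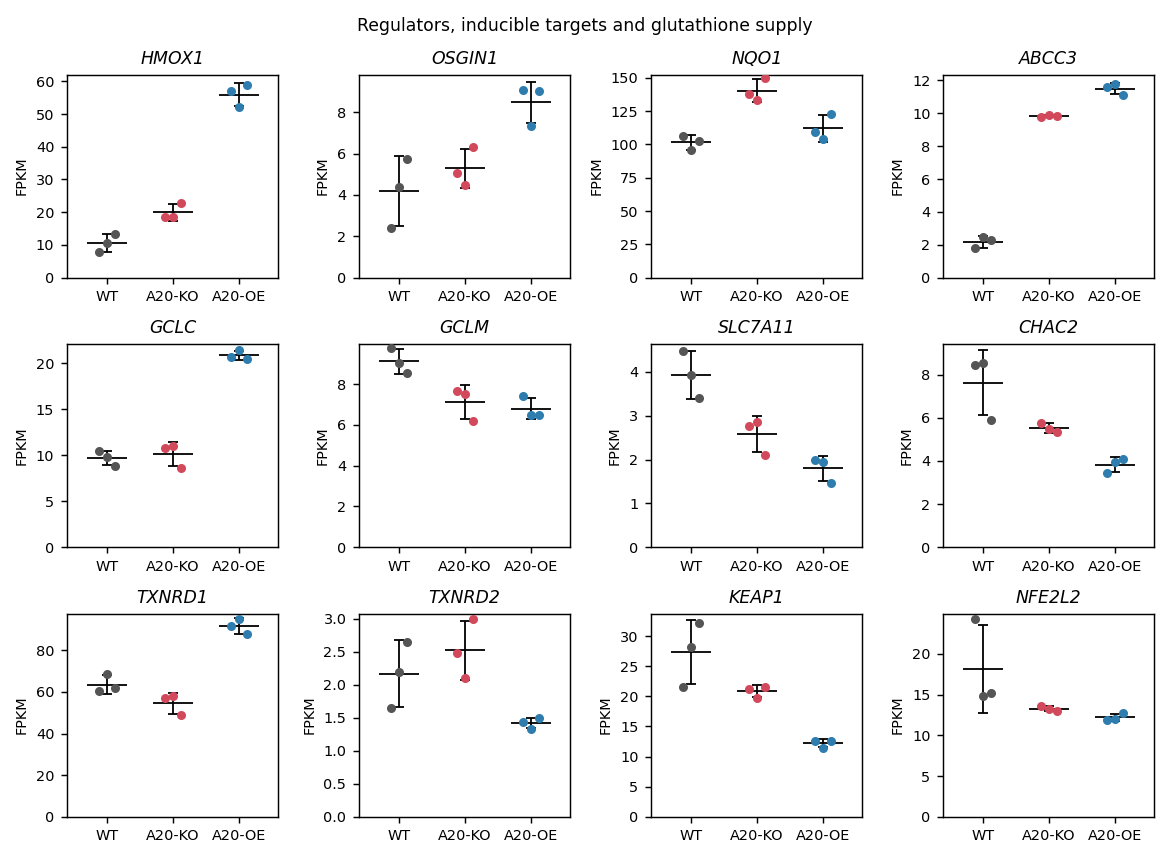
FPKM (y axis, from 0) of 12 regulators, targets and glutathione or thioredoxin genes in WT, A20-KO and A20-OE. Points are libraries, wide bars the mean and whiskers the SD (n = 3). HMOX1, GCLC and TXNRD1 are highest in A20-OE, NQO1 is highest in A20-KO, ABCC3 is high in A20-KO and A20-OE, and KEAP1, SLC7A11 and CHAC2 are lowest in A20-OE.

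The genes of glutathione supply did not move in one direction. SLC7A11, the cystine importer subunit of system xc-, fell in A20-KO and A20-OE against WT, whereas GCLC, the catalytic subunit of the rate-limiting enzyme of glutathione synthesis, rose in A20-OE against both other groups. Of the 6 genes, 0 rose and 1 fell in A20-KO against WT, 1 rose and 0 fell in A20-OE against A20-KO, and 1 rose and 4 fell in A20-OE against WT. Among all genes tested the shares higher and lower were 11.3% and 11.0%, 4.43% and 4.54%, and 15.7% and 15.4%. The summed level of the 6 genes was 108 ± 2.13 FPKM in WT, 102 ± 11.0 in A20-KO and 109 ± 2.01 in A20-OE.

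SLC7A11 (ENSG00000151012, chr4:138164097-138242349, minus strand) was at 4.48, 3.93 and 3.39 FPKM in WT, at 2.77, 2.86 and 2.11 in A20-KO, and at 1.99, 1.95 and 1.47 in A20-OE. The 3 groups did not overlap. The log2 fold change was -1.09 from WT to A20-OE (SE 0.17, adjusted p = 0.0016). From WT to A20-KO it was -0.59 (adjusted p = 0.039), a call that was kept only in the fits without WT replicate 3 or without A20-OE replicate 3 among the 9 that left out 1 library (adjusted p up to 0.115 in the others). From A20-KO to A20-OE it was -0.49 (adjusted p = 0.12).

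GCLC (ENSG00000001084, chr6:53497341-53616970, minus strand) was at 10.4, 9.85 and 8.85 FPKM in WT, at 10.8, 11.0 and 8.64 in A20-KO, and at 20.7, 21.4 and 20.4 in A20-OE. The WT and A20-KO libraries overlapped, and the A20-OE libraries were all far above them. The log2 fold change was 1.04 from A20-KO to A20-OE (SE 0.11, adjusted p = 0.0019) and 1.10 from WT to A20-OE (adjusted p = 0.00015). From WT to A20-KO it was 0.05 (adjusted p = 0.77, 95% confidence interval -0.20 to 0.31).

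GCLM, the modifier subunit of the same enzyme, did not rise with GCLC. GCLM was at 9.78, 9.03 and 8.55 FPKM in WT, at 7.64, 7.54 and 6.18 in A20-KO, and at 7.4, 6.51 and 6.48 in A20-OE. All WT libraries were above the other 6, which overlapped. The change from WT to A20-OE was -0.42 on the log2 scale (SE 0.11, adjusted p = 0.021), lost without WT replicate 2 or without A20-OE replicate 2 or 3 (adjusted p = 0.0567, 0.0694 and 0.0699). Within each library the ratio of GCLC to GCLM in FPKM was 1.06 ± 0.0283 in WT (SD, n = 3), 1.42 ± 0.0304 in A20-KO and 3.08 ± 0.258 in A20-OE, with no overlap between groups.

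CHAC2, which degrades glutathione slowly in the cytosol, was at 8.45, 8.54 and 5.9 FPKM in WT, at 5.76, 5.48 and 5.33 in A20-KO, and at 3.43, 3.94 and 4.09 in A20-OE. The 3 groups were separate, with WT replicate 3 close to A20-KO. The log2 fold change was -0.96 from WT to A20-OE (SE 0.15, adjusted p = 0.0014), -0.44 from WT to A20-KO (adjusted p = 0.065) and -0.52 from A20-KO to A20-OE (adjusted p = 0.063). GSS, glutathione synthetase, was at 12.6, 11.8 and 13.6 FPKM in WT, at 11.6, 12.2 and 13.6 in A20-KO and at 9.42, 8.82 and 10.4 in A20-OE. Its change from WT to A20-OE was -0.40 (adjusted p = 0.017), lost without A20-OE replicate 1 or 2 (0.0593 and 0.0616). GSR, glutathione reductase, lay between 53.8 and 70.4 FPKM, and its log2 fold changes were all within 0.04 of 0.

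From A20-KO to A20-OE TXNRD1 rose and TXNRD2 fell, the second less firmly. TXNRD1 (ENSG00000198431, chr12:104215779-104350305, plus strand), the cytosolic selenoenzyme that recycles thioredoxin, was at 60.2, 68.6 and 61.7 FPKM in WT, at 57.2, 57.9 and 48.9 in A20-KO, and at 91.8, 95.3 and 87.8 in A20-OE. All A20-OE libraries were above all others, and WT was above A20-KO without passing the test (log2 fold change -0.22, adjusted p = 0.15). The rise was 0.75 on the log2 scale from A20-KO to A20-OE (SE 0.10, adjusted p = 0.0042) and 0.53 from WT to A20-OE (adjusted p = 0.0037), and both calls held in every alternative fit.

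TXNRD2, the mitochondrial counterpart, was at 1.65, 2.2 and 2.65 FPKM in WT, at 2.47, 2.09 and 2.99 in A20-KO, and at 1.44, 1.33 and 1.49 in A20-OE. The A20-OE libraries were the lowest, and the other groups overlapped. The change from A20-KO to A20-OE was -0.77 (SE 0.19, adjusted p = 0.041), a call kept in only 2 of the 9 fits that left out 1 library, those without WT replicate 1 or 3 (adjusted p up to 0.142 in the others). From WT to A20-OE it was -0.55 (adjusted p = 0.056). The TXNRD1 to TXNRD2 ratio of FPKM was 30.4 ± 6.7 in WT, 22.4 ± 5.69 in A20-KO and 64.8 ± 6.34 in A20-OE.

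TXN itself was at 321, 216 and 235 FPKM in WT, at 186, 187 and 234 in A20-KO, and at 164, 149 and 203 in A20-OE. WT and A20-KO overlapped, as did A20-KO and A20-OE. The change from WT to A20-OE was -0.57 (adjusted p = 0.041), and it was lost in 6 of the 9 fits that left out 1 library, all but those without WT replicate 2, A20-KO replicate 3 or A20-OE replicate 3 (adjusted p up to 0.142). TXN2, the mitochondrial thioredoxin, lay between 23.2 and 37.5 FPKM and passed in none of the comparisons. SRXN1, which repairs overoxidised peroxiredoxins, spread from 1.18 to 5.38 FPKM with a large standard error (0.50), and 85% of its exonic bases are shared with AL121758.1 on the same strand, so its level is uncertain.

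**Figure D4:**
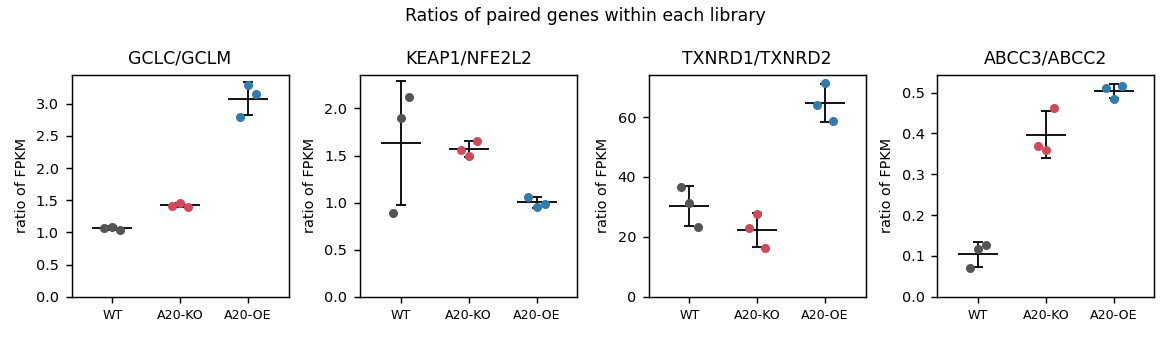
Ratio of FPKM within each library (y axis, from 0) for 4 pairs of genes in WT, A20-KO and A20-OE. Points are libraries, wide bars the mean and whiskers the SD (n = 3). The GCLC to GCLM and TXNRD1 to TXNRD2 ratios are highest in A20-OE, and the ABCC3 to ABCC2 ratio is higher in A20-KO and A20-OE than in WT.

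The peroxiredoxins, thiol enzymes that reduce hydrogen peroxide, also went different ways. PRDX3 and PRDX4 fell, PRDX5 rose in A20-KO, PRDX6 fell in A20-OE against WT, and PRDX1 and PRDX2 passed in none of the comparisons. PRDX3 (chr10:119167703-119178833, minus strand), the mitochondrial form, was at 83.9, 81.0 and 79.0 FPKM in WT, at 59.1, 58.3 and 56.1 in A20-KO, and at 46.8, 45.3 and 48.2 in A20-OE. The groups were tight and separate. The change was -0.49 from WT to A20-KO (SE 0.08, adjusted p = 0.0026) and -0.80 from WT to A20-OE (adjusted p = 0.00012). The step from A20-KO to A20-OE was -0.30 (adjusted p = 0.043), and this call was kept only without WT replicate 1 or 3 among the 9 fits that left out 1 library (adjusted p up to 0.138 in the others).

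PRDX4, the form of the endoplasmic reticulum, was at 65.9, 55.6 and 68.6 FPKM in WT, at 41.6, 38.4 and 46.4 in A20-KO, and at 44.0, 38.3 and 44.7 in A20-OE. The A20-KO and A20-OE libraries overlapped, and all 6 were below WT. The change was -0.59 in A20-KO against WT (SE 0.12, adjusted p = 0.0077) and -0.58 in A20-OE against WT (adjusted p = 0.0053). PRDX5, found in mitochondria, peroxisomes and cytosol, was at 70.0, 120 and 139 FPKM in WT, at 199, 172 and 234 in A20-KO, and at 151, 131 and 151 in A20-OE. The A20-KO libraries were the highest, and WT replicate 1 stood well below the other WT libraries. Its rise from WT to A20-KO was 0.93 (SE 0.23, adjusted p = 0.022), lost without A20-KO replicate 1 or 3 (adjusted p = 0.0647 and 0.0787).

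PRDX6, which also reduces phospholipid hydroperoxides, was at 110, 87.2 and 96.2 FPKM in WT, at 82.8, 86.6 and 96.0 in A20-KO, and at 69.7, 65.0 and 75.1 in A20-OE. WT and A20-KO overlapped and A20-OE was below both. The change from WT to A20-OE was -0.48 (adjusted p = 0.011). PRDX1 lay between 366 and 508 FPKM and PRDX2 between 88.0 and 159 FPKM. The summed level of the 6 peroxiredoxins was 920 ± 75.5 FPKM in WT, 936 ± 108 in A20-KO and 825 ± 74.4 in A20-OE (exact two-sided permutation p of 0.2 or more in each comparison), with PRDX1 as the largest part.

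GPX4 (ENSG00000167468, chr19:1103926-1106791, plus strand), the selenoenzyme that reduces lipid hydroperoxides in membranes and the central brake on ferroptosis, was at 122, 101 and 122 FPKM in WT, at 118, 104 and 147 in A20-KO, and at 99.5, 81.2 and 118 in A20-OE. The 3 groups overlapped throughout. The log2 fold change was 0.09 from WT to A20-KO (95% confidence interval -0.30 to 0.48, adjusted p = 0.76), -0.31 from A20-KO to A20-OE (-0.70 to 0.08, adjusted p = 0.3) and -0.22 from WT to A20-OE (-0.61 to 0.17, adjusted p = 0.38). A change of GPX4 mRNA was not detected, and the intervals leave room for changes of up to these sizes.

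GPX1, the abundant cytosolic glutathione peroxidase, was at 162, 166 and 193 FPKM in WT, at 228, 191 and 282 in A20-KO, and at 149, 124 and 158 in A20-OE. The A20-KO libraries were above the A20-OE libraries, and their lowest lay within the WT range. The change from A20-KO to A20-OE was -0.69 (SE 0.16, adjusted p = 0.034), a call kept only in the fits without WT replicate 1, WT replicate 3 or A20-KO replicate 2 (adjusted p up to 0.133 in the other 6). GPX8, a peroxidase of the endoplasmic reticulum, was at 14.0, 11.3 and 9.73 FPKM in WT, at 8.21, 8.19 and 8.29 in A20-KO, and at 6.47, 6.24 and 6.77 in A20-OE. The groups were separate. Its change was -0.82 from WT to A20-OE (SE 0.13, adjusted p = 0.0014) and -0.49 from WT to A20-KO (adjusted p = 0.025), the second lost without WT replicate 2 or any one A20-KO library (adjusted p up to 0.073). GPX2, the gastrointestinal form, did not exceed 0.376 FPKM in any library.

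SOD2 fell, CAT rose and SOD1 fell in A20-OE. SOD2 (ENSG00000112096), the mitochondrial superoxide dismutase and a classical NF-κB target, was at 5.1, 4.57 and 4.64 FPKM in WT, at 3.08, 3.15 and 2.67 in A20-KO, and at 2.63, 2.63 and 2.74 in A20-OE. All WT libraries were above the other 6. The change was -0.67 in A20-KO against WT (SE 0.11, adjusted p = 0.003) and -0.81 in A20-OE against WT (adjusted p = 0.0006). A second, overlapping gene of the same symbol in the table (ENSG00000285441) had a mean below the limit for testing.

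CAT, catalase of the peroxisome, was at 16.7, 14.1 and 15.1 FPKM in WT, at 22.3, 23.5 and 19.8 in A20-KO, and at 22.5, 23.2 and 23.1 in A20-OE. The WT libraries were below the other 6, which overlapped. The rise was 0.51 in A20-KO (SE 0.10, adjusted p = 0.0062) and 0.59 in A20-OE (adjusted p = 0.0019), each against WT. SOD1, the cytosolic dismutase, was at 117, 131 and 137 FPKM in WT, at 132, 116 and 156 in A20-KO, and at 92.9, 87.6 and 103 in A20-OE. The A20-OE libraries were below all others, and WT and A20-KO overlapped. Its change to A20-OE was -0.50 from A20-KO (SE 0.13, adjusted p = 0.045) and -0.44 from WT (adjusted p = 0.028). The first of these calls was kept only in the fits without WT replicate 1, WT replicate 3 or A20-KO replicate 2 (adjusted p up to 0.156 in the other 6), and the second was lost without WT replicate 2 or 3 or A20-OE replicate 1 or 2 (adjusted p up to 0.0968).

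**Figure D5:**
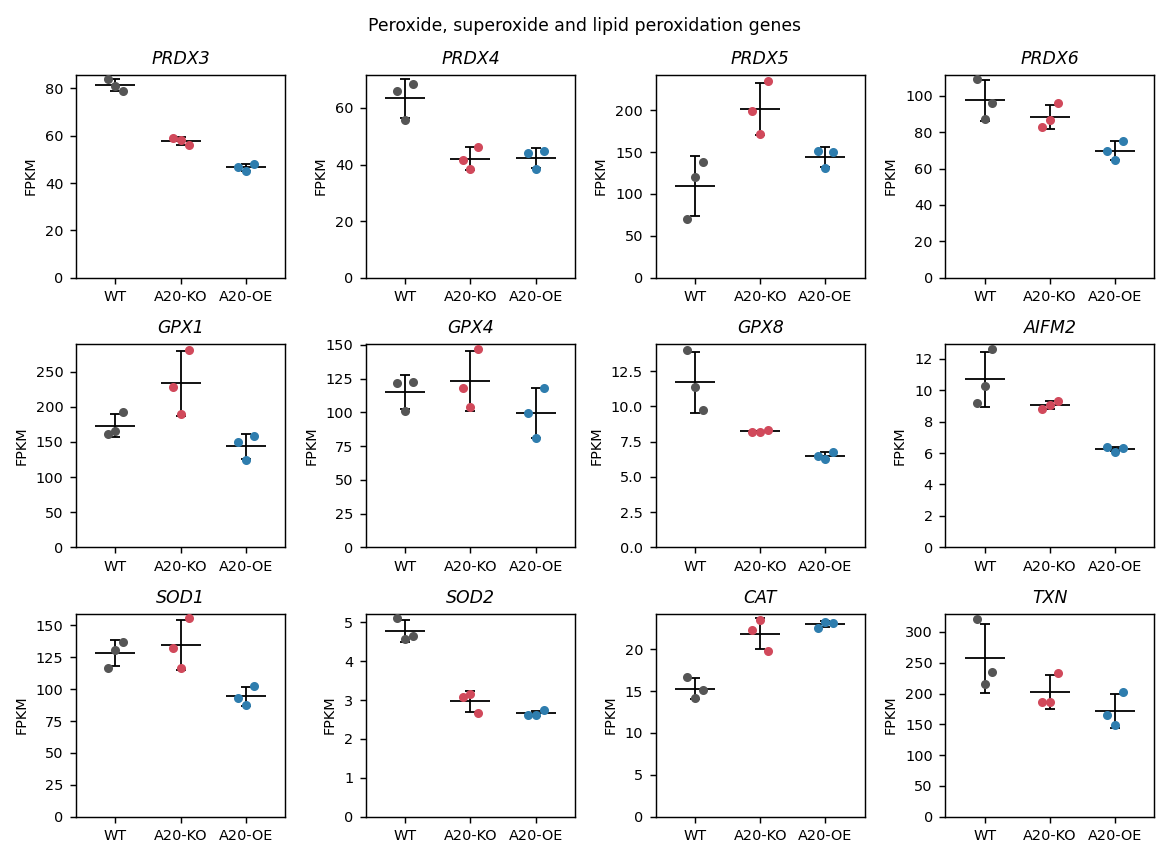
FPKM (y axis, from 0) of 12 genes of peroxide, superoxide and lipid peroxide removal in WT, A20-KO and A20-OE. Points are libraries, wide bars the mean and whiskers the SD (n = 3). PRDX3, GPX8 and SOD2 step down from WT, CAT is higher in A20-KO and A20-OE, PRDX5 and GPX1 peak in A20-KO, AIFM2 is lowest in A20-OE and the GPX4 libraries overlap.

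Of the lipid peroxidation genes, AIFM2 fell in A20-OE. AIFM2 (chr10:70098223-70132934, minus strand), which keeps coenzyme Q reduced as a lipid radical trap independent of glutathione, was at 9.19, 10.3 and 12.6 FPKM in WT, at 8.84, 9.08 and 9.32 in A20-KO, and at 6.39, 6.1 and 6.3 in A20-OE. WT replicate 1 lay within A20-KO, and the A20-OE libraries were below all others. The change was -0.75 from WT to A20-OE (SE 0.12, adjusted p = 0.0014) and -0.53 from A20-KO to A20-OE (adjusted p = 0.029), the latter kept only without WT replicate 1 or 3 among the 9 fits that left out 1 library (adjusted p up to 0.105 in the others). ACSL4 was at 20.6, 13.6 and 11.4 FPKM in WT, at 13.5, 13.7 and 10.1 in A20-KO, and at 12.7, 13.3 and 11.4 in A20-OE, and passed in none of the comparisons (95% confidence interval -0.74 to 0.21 for the log2 fold change from WT to A20-KO).

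The conjugate exporters differed from each other. ABCC3 (ENSG00000108846, chr17:50634777-50692252, plus strand), an exporter of glucuronide and glutathione conjugates and of bile salts, was at 1.79, 2.46 and 2.3 FPKM in WT, at 9.8, 9.9 and 9.81 in A20-KO, and at 11.6, 11.8 and 11.1 in A20-OE. The WT libraries were far below the others. The mean was 4.51-fold higher in A20-KO and 5.27-fold higher in A20-OE than in WT, with log2 fold changes of 2.13 and 2.36 (SE 0.12 each, adjusted p = 3.4e-05 and 5.9e-06). From A20-KO to A20-OE it was 0.22 (adjusted p = 0.28, 95% confidence interval -0.05 to 0.49). ABCC2, an exporter of the same family, lay between 18.2 and 27.6 FPKM and passed in none of the comparisons. The ABCC3 to ABCC2 ratio of FPKM was 0.105 ± 0.0306 in WT, 0.397 ± 0.0577 in A20-KO and 0.504 ± 0.0178 in A20-OE.

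Among the tested transferases and aldo-keto reductases AKR1B1 was the one that passed. AKR1B1, aldose reductase, was at 11.7, 13.7 and 16 FPKM in WT, at 19.2, 19.0 and 21.3 in A20-KO, and at 14.9, 13.9 and 17.5 in A20-OE. The A20-KO libraries were above the overlapping WT and A20-OE libraries, and the rise from WT to A20-KO was 0.53 (SE 0.13, adjusted p = 0.021), lost without WT replicate 2 or A20-KO replicate 1 or 3 (adjusted p = 0.0605, 0.056 and 0.0684). GSTP1 was at 289, 258 and 320 FPKM in WT, at 276, 255 and 369 in A20-KO, and at 204, 183 and 240 in A20-OE. The A20-OE libraries were the lowest, with a log2 fold change of -0.51 from A20-KO (adjusted p = 0.096) and -0.47 from WT (adjusted p = 0.063), neither of which passed. Both passed with limma-voom on recovered reads (adjusted p = 0.039 and 0.025). GSTO1 and MGST1 passed in none of the comparisons, and MGST1 did in A20-OE against WT with limma-voom (log2 fold change -0.45, adjusted p = 0.043). In that fit GPX1 also passed in A20-KO against WT (adjusted p = 0.047) and TXNRD2 in A20-OE against WT (0.027). GSTO1 passed in both comparisons of A20-OE in a limma fit with a block for the replicate number (adjusted p = 0.026 against A20-KO and 0.027 against WT).

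GSTM3, a glutathione transferase of the mu class, had 0 reads in all 6 WT and A20-KO libraries, which allows up to 3 reads in each. In A20-OE it had 14, 12 and 16 reads (0.126, 0.102 and 0.147 FPKM). Its mean in A20-OE was at least 4.91-fold higher than the highest level that 3 reads give in a WT library, and at least 4.61-fold higher than in A20-KO. The gene was under the limit for testing. In the fit without a filter it passed in A20-OE against A20-KO (adjusted p = 0.0056) and against WT (0.00076), and this floor covers counting error only. AKR1C1, AKR1C2 and AKR1C3, NRF2 targets in many epithelia that share sequence with each other, did not exceed 0.521 FPKM in any library. Of 100-base stretches, 16.7% in AKR1C1 and 23.1% in AKR1C2 also occur in other genes, so their reads are uncertain.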

How the data were processed

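RNA of HCT116 cells was sequenced by the authors as poly-A libraries with paired-end reads of 150 bp, aligned with HISAT2 2.0.5 and counted with featureCounts 1.5.0-p3, per the labels and the Methods. The authors deposited FPKM per gene, the unit used here, in 1 table of 9 libraries. The strand setting and the genome build are not given in the sources used here. The gene coordinates of the table equal those of GENCODE 29 on GRCh38 for 100.0% of the 58735 genes. The authors tested differential expression with their own count model, which was not run here. All 9 sample columns were used. Groups and replicate numbers come from the labels.

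FPKM times gene length gave whole reads for 100% of values (tolerance 0.02), and the libraries held 23406222 to 24963691 reads. Because FPKM are not counts, log2(FPKM + 0.1) of the 21636 genes with a mean of at least 0.1 FPKM was tested with limma 3.58.1 in R 4.3.3, with a variance trend and the 3 groups in 1 fit. A gene passed at a Benjamini-Hochberg adjusted p under 0.05 and was called with an absolute log2 fold change above 1 as well. The pseudocount shrinks the fold changes of low genes. An FPKM depends on the depth by which its library was divided, so a rise of abundant transcripts may lower the others. The reads on genes were 0.950 times the depth implied by the deposited FPKM in WT replicate 2 and 1.07 times in A20-OE replicate 3. The divisor was thus not simply the total of reads on genes, and how it was set is not stated. Confidence intervals are limma's, at 95%. Single sums were compared by exact two-sided permutation tests. Floors of 3 reads cover counting error only, since reads that carry no molecular identifier cannot be counted as separate molecules.

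The members and the lists were chosen with earlier results of these data known. All 43 genes are accounted for. Values in every library are given for TNFAIP3, NFE2L2, KEAP1, SLC7A11, GPX4, called genes and the 5 largest rises and falls among passed genes in each comparison, and for further passed genes. Of 92 other pathway genes the 5 largest passed rises and falls in each comparison are named, except for 1 gene that is not reported here. The limma fit was tested on simulated data. Alternatives were a pseudocount of 1 or 0.01, all genes or those of at least 1 FPKM, median-of-ratios scaling, separate fits of 2 groups, a block for the replicate number, a fit without the variance trend, limma-voom on recovered reads, each of the 9 libraries left out and, chosen after seeing the data, FPKM recomputed from the total recovered reads with and without mitochondrial ones. Promoter windows came from RefSeq (GRCh38.p14), and exon overlaps from GENCODE 29.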

Additional observations from a re-analysis of the deposited data

How the results depend on the processing

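The alternatives were examined for 47 pairs of gene and comparison. These were all that passed, and those of NFE2L2, KEAP1, SLC7A11 and GPX4 whether or not they passed. Of the 47, 28 stayed on the same side of the threshold and kept their direction in every fit, and 16 passed ones were lost in some. The 28 include pairs that never passed: NFE2L2 in A20-KO against WT and A20-OE against A20-KO, and GPX4 in both comparisons of A20-OE. Of the 20 alternatives, 12 lost SLC7A11 in A20-KO against WT, 9 each lost NFE2L2 and TXN in A20-OE against WT, and in A20-OE against A20-KO 10 lost PRDX3, 9 each lost TXNRD2, GPX1 and SOD1, and 8 lost AIFM2. The only reversal of direction was that of GPX4 in A20-KO against WT, which did not pass in any fit and lay between -0.047 (without A20-KO replicate 3) and 0.201 (without A20-KO replicate 2) when 1 library was left out. In A20-KO against WT the 5 lower genes became 3 in a fit on only the 2 groups compared. In A20-OE against A20-KO the 3 higher genes became 5 in that fit, the 6 lower genes became 2 without a filter, 1 without the variance trend and 11 with FPKM from total recovered reads, a scaling chosen after seeing the data, and the 2 called genes became 1 with a pseudocount of 1 and with FPKM from total recovered reads. The counts over all genes moved too. In A20-KO against WT the lower ones went from 2380 to 1504 in the fit on 2 groups. In A20-OE against A20-KO the higher ones went from 958 to 1142 in that fit. The lower ones went from 982 to 579 without a filter, 531 without the variance trend and 1423 with FPKM from total recovered reads. The causes were not tested. Leaving out 1 library gave 4 to 7 higher, 3 to 6 lower and 1 to 3 called genes in A20-KO against WT, 3 to 4, 0 to 11 and 1 to 2 in A20-OE against A20-KO, and 5 to 6, 9 to 15 and 4 to 7 in A20-OE against WT. Over all genes these fits gave 1587 to 2635 higher and 1523 to 2329 lower in A20-KO against WT. They gave 246 to 1445 and 208 to 1792 in A20-OE against A20-KO, and 2417 to 3503 and 2411 to 3497 in A20-OE against WT.

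Deviations of same-numbered libraries from their group means had correlations of -0.123 to 0.325, and those of differently numbered libraries -0.33 to 0.207. For replicate 3 they were 0.325 (WT and A20-KO), 0.159 (WT and A20-OE) and 0.313 (A20-KO and A20-OE). The labels do not say whether the numbers mark a batch, and a part shared by number was not tested. With the replicate block A20-KO against WT gave 8 higher and 6 lower genes, A20-OE against A20-KO 3 and 12, and A20-OE against WT 6 and 18, while over all genes the block gave 2759 and 2843, 1231 and 1346, and 3664 and 3684 against 2436 and 2380, 958 and 982, and 3397 and 3338 without it. SLC7A11 then passed in A20-OE against A20-KO (adjusted p = 0.0286). So did GSTP1, NQO1, GSTO1, AKR1B1 and GSS in that comparison. GPX1, PRDX2 and GCLM were gained in A20-KO against WT, and GSTP1, GSTO1, TXN2 and TXNRD2 in A20-OE against WT. The median log2 fold change of all genes moved by less than 0.1 under each scaling. At these depths genes below 1 FPKM rest on few reads.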

Other observations

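Of 92 further genes of redox metabolism, iron handling and lipid peroxidation, 84 were tested. In A20-KO against WT 20 were higher, 7 lower and 57 did not pass (5 called, all higher), with a median log2 fold change of 0.15. These are 23.8% and 8.33% of the 84, against 11.3% and 11.0% of all genes. SAT1, the polyamine acetyltransferase linked to lipid peroxidation, rose from 64.9 ± 3.39 FPKM (SD, n = 3) in WT to 323 ± 34.4 in A20-KO and was at 350 ± 32.6 in A20-OE (log2 fold change 2.31 in A20-KO and 2.43 in A20-OE against WT, SE 0.12). ALOX15, a lipoxygenase, rose by 1.58 on the log2 scale, the glutathione hydrolase GGT1 by 1.24, the transferase GSTM2 by 1.22 and the methionine sulfoxide reductase MSRB2 by 1.15. The largest falls among genes that passed were those of the exporter ABCG2 (-0.82), GLRX3 (-0.73), ALOXE3 (-0.61), the exporter ABCC4 (-0.59) and VDAC3 (-0.52).

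In A20-OE against A20-KO 6 were higher, 13 lower and 65 did not pass (2 called, both higher), with a median of -0.16. These are 7.14% and 15.5%, against 4.43% and 4.54% of all genes. MBOAT2 and MBOAT1, phospholipid acyltransferases that favour monounsaturated chains, rose by 1.20 and 0.99 on the log2 scale, the lipoxygenases ALOX5 and ALOX12 by 1.13 and 0.91, and the ferritin receptor NCOA4 by 0.51. DHCR7, the last enzyme of cholesterol synthesis, fell by 0.71, and so did GLRX5 and MSRB1 (-0.71 each). SLC3A2, the heavy chain that carries SLC7A11 to the membrane, fell by 0.69. In A20-OE against WT 18 were higher, 17 lower and 49 did not pass (7 called higher, 1 lower), with a median of -0.07. These are 21.4% and 20.2%, against 15.7% and 15.4% of all genes. SLC3A2 was at 64.5 ± 12.8 FPKM in WT and at 28.9 ± 1.94 in A20-OE (log2 fold change -1.14, SE 0.15, adjusted p = 0.000545), beside the fall of SLC7A11. GLRX5 (-0.90), GLRX3 (-0.89), the glutathione-degrading CHAC1 (-0.88) and the acyltransferase LPCAT3 (-0.83) also fell, and SAT1, ALOX5 (1.59), GSTM2 (1.32), GPX3 (1.19) and MBOAT2 (1.14) rose. These lists were chosen with earlier results of these data known, and the group means of ABCG2, GPX3, GSTM2 and ALOX15 were below 1 FPKM. The shares of all genes count genes down to 0.1 FPKM. Among genes of at least 1 FPKM a larger share passed in each comparison.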
